A study of Mus musculus with 28 samples.

Results

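Narrow SSRP1-only peaks at gene starts are regions where chromatin of mouse ES cells was enriched with an antibody against SSRP1 and where no peak was called for SUPT16, its partner. A SSRP1 peak was counted here if it was shorter than 1000 bp, overlapped no SUPT16 peak by even 1 bp, and lay within 1000 bp of the start of a gene in the chromatin RNA count file. Of 10114 unique SSRP1 peaks, 2363 met this rule (23.4%, 95% Wilson interval 22.5 to 24.2%). A further 664 narrow peaks at starts were shared with SUPT16, and 701 peaks at starts were broad (1000 bp or longer). Another 5426 narrow SSRP1-only peaks lay away from starts. The SUPT16 list was shorter, with 3855 unique peaks. Whether SUPT16 was absent from SSRP1-only peaks or was present and not called was not tested. The 2363 peaks lay at the starts of 2575 genes.

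FACT is a histone chaperone built of SSRP1 and SUPT16 that binds H2A-H2B dimers and acts on nucleosomes where RNA polymerase passes, and whether it removes and replaces the dimers there has been debated. SSRP1 carries an HMG box, a fold that binds DNA, whereas SUPT16 carries much of the histone-binding surface. The start of a protein-coding gene is the place where RNA polymerase II is loaded. Many mammalian starts lie in CpG islands, stretches rich in G, C and the CG dinucleotide. The gene starts used here are those of all annotated genes, snoRNA and rRNA genes included.

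All cells were mouse ES cells of the E14 line. For ChIP-seq, untreated cells were fixed for 20 min in 1% formaldehyde, and 2 biological replicates per subunit, from separate cultures, were pooled in 1 peak list. The peak lists hold positions and assigned genes only, so the depth behind a peak is unknown and no peak has a replicate error. For RNA-seq with spike-ins, 4 control libraries came from cells given a lentiviral scramble shRNA, and 4 KD libraries came from cells given Ssrp1 shRNA 1 and 2. In both groups selection with 2 µg/ml puromycin began 48 h after transfection, and cells were collected after 24 h of it. The controls thus carry vector and selection too. Chromatin-associated RNA was counted in 2 libraries of untreated cells. The 4 libraries of a group are given as biological replicates, with no statement of separate transfections, so their p-values measure only the spread between these libraries. Values per library are listed in the order of the replicate numbers.

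The RNA-seq libraries held 4602278 to 6680919 recovered reads in control and 9433193 to 19856032 in KD. Ssrp1, the gene targeted by the hairpins, fell to a low level in every KD library. Its values, scaled to library size, were 261, 230, 223 and 226 in the control libraries and 24.1, 26.4, 24.9 and 28.9 in the KD libraries, with no overlap (log2 fold change -3.15 ± 0.0687 SE, adjusted p = 1.18e-22 in limma). Ssrp1 itself had no SSRP1 or SUPT16 peak within 1000 bp of its start. The ES cell markers Pou5f1, Nanog, Sox2, Zfp42, Esrrb, Dppa5a and Tdgf1 were all present, with summed values of 1567 to 1690 in control and 4570 to 5072 in KD. Of the fixed markers of other cell types, the 4 of fibroblasts summed to 41.7 to 52.4 in control and 12.2 to 13.7 in KD. The 4 of primitive endoderm summed to 49.8 to 75.2 and 18.3 to 23.8, and the 3 of trophectoderm with a value, mostly Krt8, to 593 to 827 and 504 to 542. The 4 of neural progenitors summed to 75.7 to 99.0 and 141 to 152, of which Tubb3 alone was higher in KD (mean 33.6 in control and 108 in KD), while Nes (42.8 and 33.2), Pax6 (7.89 and 2.48) and Sox1 (4.20 and 1.85) were lower. The part of other cell types in the differences described here was not tested.

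The DNA of 5 peaks is shown to let a reader see what such a region holds. They are among the 294-bp peaks nearest to the starts of the genes named below, and each held at least 200 bases outside untranslated exons, and bases of untranslated exons are not printed. All are from the RefSeq copy of GRCm38 (mm10), are written 5′ to 3′ on the strand of the gene, and carry in capitals each match, on either strand, to the 11 motifs searched. Mrpl17 and Mrpl2 code for proteins of the large mitochondrial ribosomal subunit, Brca2 for a protein of DNA repair by recombination, Eif3c for a subunit of translation initiation factor 3, and Sptan1 for alpha-II spectrin of the membrane skeleton.

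The peak at Mrpl17, on the minus strand, covered chr7:105811091-105811384. Its centre was at -150.5 bp from the start, and it lay wholly outside any gene, and held 29 CG dinucleotides at a GC share of 67.0%.
Mrpl17: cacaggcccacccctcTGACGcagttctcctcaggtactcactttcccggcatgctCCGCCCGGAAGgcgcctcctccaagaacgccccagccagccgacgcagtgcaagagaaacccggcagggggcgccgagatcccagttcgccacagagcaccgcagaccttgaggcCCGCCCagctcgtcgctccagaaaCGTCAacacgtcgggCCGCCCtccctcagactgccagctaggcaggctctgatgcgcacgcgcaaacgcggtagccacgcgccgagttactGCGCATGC
The peak at Brca2, on the plus strand, covered chr5:150522317-150522610 upstream of the start, and the stretch chr5:150522317-150522584 is shown. The shown bases lie in an exon of a non-coding transcript, its GC share was 51.4%, the lowest of the 5, and it holds the only TATA box match among them.
Brca2: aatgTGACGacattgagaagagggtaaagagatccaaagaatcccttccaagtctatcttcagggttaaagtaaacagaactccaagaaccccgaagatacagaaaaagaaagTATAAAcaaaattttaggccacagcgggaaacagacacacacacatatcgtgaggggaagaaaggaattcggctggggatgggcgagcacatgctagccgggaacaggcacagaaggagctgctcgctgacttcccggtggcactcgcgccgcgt
The peak at Mrpl2, on the plus strand, covered the start at chr17:46646237-46646530, and chr17:46646303-46646530 is shown, from the first coding base into the intron.
Mrpl2: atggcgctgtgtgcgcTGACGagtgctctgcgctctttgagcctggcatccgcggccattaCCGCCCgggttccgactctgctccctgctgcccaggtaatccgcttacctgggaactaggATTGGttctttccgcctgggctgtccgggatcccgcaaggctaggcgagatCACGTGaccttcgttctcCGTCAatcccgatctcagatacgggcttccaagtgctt
The peak at Eif3c, on the minus strand, covered chr7:126565923-126566216 downstream of the start, and chr7:126565923-126566179 is shown, again from the first coding base into the first intron.
Eif3c: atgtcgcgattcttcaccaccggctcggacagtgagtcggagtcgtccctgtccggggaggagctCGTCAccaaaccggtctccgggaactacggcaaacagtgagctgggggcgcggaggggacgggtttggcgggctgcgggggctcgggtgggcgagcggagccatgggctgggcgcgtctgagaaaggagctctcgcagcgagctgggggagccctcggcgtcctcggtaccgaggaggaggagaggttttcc
The peak at Sptan1, on the plus strand, covered chr2:29965755-29966048, and chr2:29965786-29966048, wholly intronic, is shown. It had the highest GC share of the 5, 76.2%, with 39 CG dinucleotides in the whole peak and 4 GC boxes in the printed part.
Sptan1: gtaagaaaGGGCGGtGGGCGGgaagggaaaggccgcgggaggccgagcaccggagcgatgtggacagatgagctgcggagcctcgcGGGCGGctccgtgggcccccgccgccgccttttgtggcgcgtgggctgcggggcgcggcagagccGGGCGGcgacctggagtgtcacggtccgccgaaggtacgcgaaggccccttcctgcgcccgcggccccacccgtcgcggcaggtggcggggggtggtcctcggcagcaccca
Of the 5, 2 hold a GC box and no CCAAT box, and 1 holds both. The peaks at Cacna2d2, Psmd1 and Rad50 lay nearer to their starts, but 294, 171 and 264 of their 294 bases fall in untranslated exons.

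The narrow SSRP1-only peaks came in 8 lengths, all multiples of 98 bp. The shortest, 294 bp, was the most common with 1030 peaks (43.6%), followed by 392 bp with 298 and 490 bp with 268. The numbers fell from there to 70 peaks of 980 bp, the last length inside the rule. Just outside it, 66 SSRP1-only peaks at starts were 1078 bp long. The gap between peak and start reached 997 bp. In all, 56 of the peaks had a gap of 900 to 1000 bp, and 37 further narrow SSRP1-only peaks had a gap above 1000 and up to 1100 bp.

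Most of these peaks sat on or just downstream of the start. The start itself was covered by 986 (41.7%, interval 39.8 to 43.7%), 943 lay wholly downstream (39.9%, 38.0 to 41.9%) and 434 wholly upstream (18.4%, 16.9 to 20.0%). The centre lay at a median of 144 bp downstream of the nearest start, and within 300 bp of it in 54.3% of the peaks. Of the narrow peaks shared with SUPT16, 54.8% (51.0 to 58.6%) covered the start and 8.58% (6.68 to 11%) lay wholly upstream. Both intervals lie apart from those of the SSRP1-only peaks. The shared peaks were also longer, with a median of 490 bp (quartiles 392 to 784) against 392 bp (294 to 588). The part of length in this contrast was not tested. The centres of the shared peaks had a median of 178 bp downstream. Broad peaks, which are longer, covered the start in 85.9%. These intervals cover counting error only, and no test over regions was made.

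**Figure D1:**
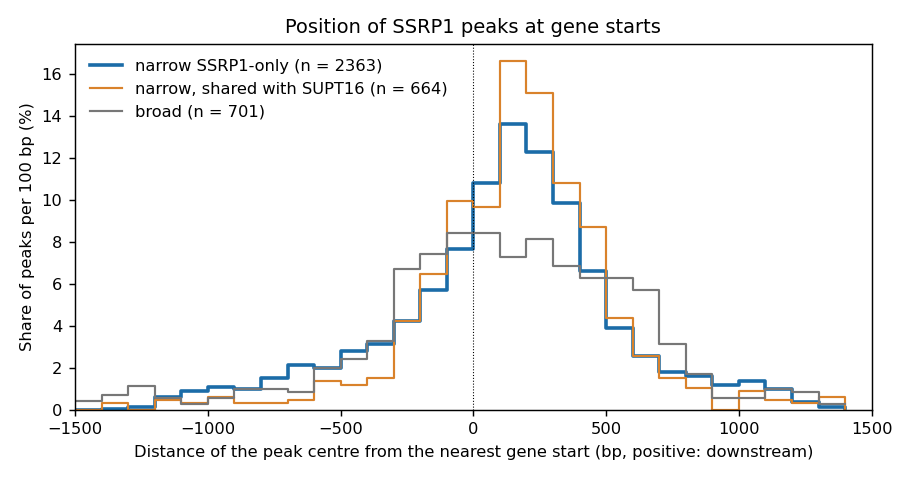
Share of peaks (y axis, %) in each 100-bp step of the distance from the nearest gene start to the peak centre (x axis, bp, positive downstream), for narrow SSRP1-only, narrow shared and broad SSRP1 peaks. The 2363 narrow SSRP1-only peaks were centred at a median of 144 bp downstream, the 664 shared peaks at 178 bp, and 32.9% of the SSRP1-only peaks, 27.4% of the shared and 38.8% of the broad peaks were centred upstream.

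In the RefSeq annotation of GRCm38, the centre of 762 of the peaks fell in an intron (32.2%), of 707 in an untranslated exon of a coding gene (29.9%), of 347 in coding sequence (14.7%), of 111 in an exon of a non-coding transcript (4.70%) and of 436 outside any gene (18.5%). An exon base was inside 80.0% of the peaks and a coding base inside 45.5%. Where the peak covered the start, the centre was most often in an untranslated exon (45.4%), and where it lay downstream, in an intron (56.3%). Among narrow SSRP1-only peaks away from starts, 44.7% were intronic and 40.5% outside any gene.

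Starts that carried more than 1 of these peaks were few. Of the 2575 genes, 2462 had 1 peak, 110 had 2 and 3 had 3. In 81 of the 110 pairs the centres of the peaks lay on opposite sides of the start. The genes with 3 were Cldn4, which codes for a tight junction claudin, Tcp11, a testis-expressed gene, and the microRNA gene Mir92b. At Tcp11 the centres lay at 747.5 bp and at -134.5 and -918.5 bp from the start. At Mir92b they lay at 794.5, 59.5 and -724.5 bp, with negative values upstream. More than 1 gene start was in reach of 321 peaks (13.6%). A divergent pair was in reach of 217 (9.18%, 8.08 to 10.4%), against 12.8% (10.5 to 15.6%) of the shared and 13.6% of the broad peaks. Both of those classes hold longer peaks, and the part of length was not tested. The rule excludes overlap with a SUPT16 peak, but 166 of the peaks (7.02%) had one within 1000 bp, and 2197 had none. Of the narrow SSRP1-only peaks away from starts, 3.02% had one within 1000 bp.

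The X chromosome carried 4 of the 2363 peaks (0.169%, interval 0.0658 to 0.434%), although 4.52% of all gene starts and 3.82% of those with an RNA-seq value are on X. They lay at Rbm3 with its antisense partner Rbm3os, at Cdk16, at Uxt with A230072C01Rik, and at Alg13. The share of X was also low among shared peaks (4 of 664, 0.602%), broad peaks (1 of 701, 0.143%) and SSRP1-only peaks away from starts (63 of 5426, 1.16%). Among autosomes, the share of genes with a value that carried one of the peaks ran from 10.5% on chromosome 18 to 18.9% on chromosome 17, against 0.850% on X. The Y chromosome had 0 of these peaks over 32 genes with a value.

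In base composition the peaks were close to the starts of genes with an RNA-seq value and richer in G and C than the SSRP1-only peaks elsewhere. Their median GC share was 62.9% (quartiles 56.1 to 69.4%) and their median ratio of observed to expected CG dinucleotides was 0.749. Peaks away from starts had 51.3% and 0.273. Taking a GC share of at least 50% with a ratio of at least 0.6 as CpG-rich, 1603 of the 2363 were CpG-rich (67.8%, 65.9 to 69.7%). In 300-bp windows it was 66.3% (64.4 to 68.2%) of the peaks, 68.4% (67.7 to 69.2%) of the starts of genes with an RNA-seq value and 44.3% of all gene starts. Over whole peaks it was 88.1% (85.4 to 90.3%) of the shared peaks and 10.1% of the peaks away from starts.

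This share followed position and length. It was 85.6% for peaks that covered the start, 63.4% for those downstream and 37.1% for those upstream. It was 58.8% for the 294-bp peaks and 75.6% for those of 588 bp or more. At matched distance the peaks were richer in G and C than the starts of genes with a value in all 8 steps of 250 bp. From 0 to 250 bp downstream the median GC share of the 300-bp windows was 68.0% in 729 peaks and 64.7% at the starts of genes with a value. From 250 to 500 bp downstream it was 66.0% in 528 peaks and 58.3%, and from 750 to 1000 bp upstream 52.0% in 68 peaks and 45.3%. Bases masked as repeats or low complexity made up a median of 4.76% of the peaks, against 15.6% of those away from starts. Enriched fragments and their sequencing can depend on base composition, and the part of this in the peak calls was not tested.

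**Figure D2:**
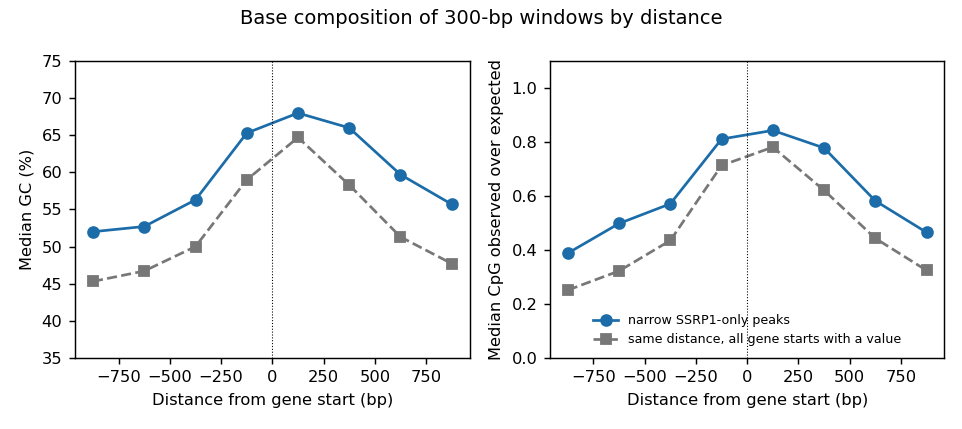
Median GC share (left, %) and median ratio of observed to expected CG dinucleotides (right) of 300-bp windows against distance from the gene start (x axis, bp), for windows centred on narrow SSRP1-only peaks (circles) and for windows at the middle of the same step at all gene starts with an RNA-seq value (squares). The peaks lie above the starts in every step, by 68.0% against 64.7% in the step just downstream.

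The 11 short motifs were searched as exact letters on both strands in the 300 bp around each peak centre. A match is a description of the letters and not a bound site. The peaks are set beside windows of the same length centred on the starts of the 15369 genes with an RNA-seq value, called expressed starts here, and on all 27080 gene starts.

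The GC box (GGGCGG), the site of SP and KLF proteins, was the most frequent, in 1286 peaks (54.4%, 52.4 to 56.4%). It was in 70.9% (67.4 to 74.3%) of the shared peaks, 61.3% of expressed starts, 41.9% of all starts and 15.5% of the peaks away from starts. Among peaks centred within 300 bp of the start it was in 65.7%. The CCAAT box (CCAAT), the site of NF-Y, was in 22.6% (21.0 to 24.3%) of the peaks and in 34.4% (33.7 to 35.2%) of expressed and 35.5% of all starts, and it stayed at 21.8% in peaks centred within 300 bp of the start. The shared peaks held it in 17.5%. The CRE (TGACGTCA), the site of CREB and ATF proteins, was in 0.973% (0.649 to 1.46%) of the peaks, 1.25% of those within 300 bp, 1.51% (0.820 to 2.75%) of the shared peaks, 2.84% (2.59 to 3.11%) of expressed and 2.04% (1.88 to 2.21%) of all starts. The CCAAT box and the CRE were thus lower in the peaks than in either set of starts, while the GC box lay between the sets.

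The TATA box (TATAAA) was in 3.98% of the peaks, 6.27% of expressed starts, 11% of all starts and 9.66% of peaks away from starts. The octamer (ATGCAAAT), the site of OCT proteins, was in 11 peaks (0.466%) against 1.06% of expressed starts, 1.56% of all starts and 1.27% of peaks away from starts. ETS sites (CCGGAAG) were in 10.7% (9.56 to 12.1%) of the peaks, 16.1% of expressed starts and 10.3% of all starts, so that they were below the first and about equal to the second.

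The CRE core (TGACG), which lies inside every CRE, was in 22.9% of the peaks, 29.5% of expressed and 22.9% of all starts. The NRF1 site (GCATGCGC) was in 2.67% of the peaks, 4.22% of expressed and 2.86% of all starts, and the ZNF143 core (ACTACAA) in 2.29%, 3.56% and 3.10%.

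The YY1 site (AAGATGGCG) was in 2.37% (1.83 to 3.06%) of the peaks, 3.60% of expressed and 2.14% of all starts, and the E-box (CACGTG), the site of MYC and USF proteins, in 7.49% (6.50 to 8.62%) against 8.88% of expressed and 6.81% of all starts. In peaks centred within 300 bp of the start the E-box was in 9.42%. Windows centred on starts and windows centred on peaks lie at different distances from the start, and most peaks lie downstream of it.

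**Figure D3:**
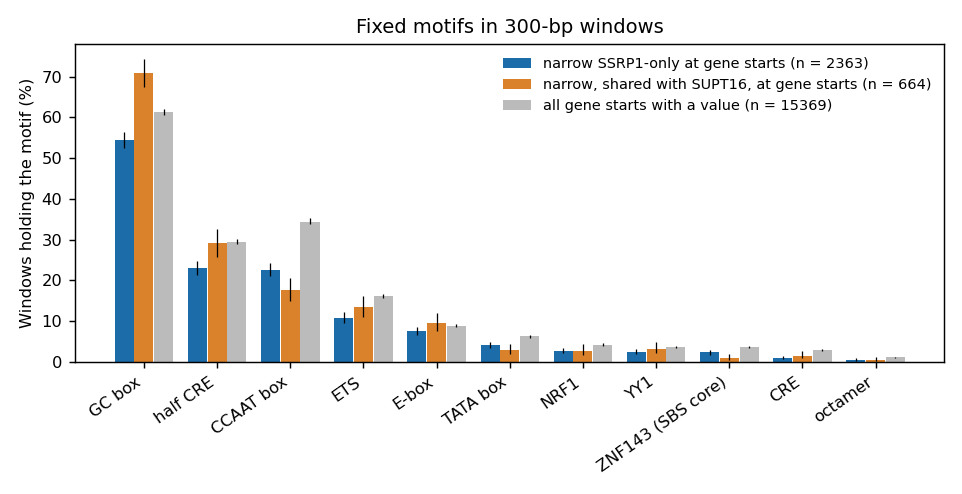
Share of 300-bp windows (y axis, %) that hold each of 11 fixed motifs (x axis), for narrow SSRP1-only peaks, narrow peaks shared with SUPT16 and all gene starts with an RNA-seq value, with 95% Wilson intervals as bars. The GC box is the tallest in each class (54.4%, 70.9% and 61.3%), and the CCAAT box is lower in both peak classes than at these gene starts.

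The genes behind the peaks were mostly protein-coding. Of the 2575, 2302 were protein-coding, 168 non-coding RNA genes, 14 snoRNA genes and 17 pseudogenes, and 2335 had an RNA-seq value. At 2367 of them no SSRP1 peak of another kind (shared or broad) and no SUPT16 peak lay within 1000 bp of the start. At 208 such a further peak did lie there. Among the genes named below, these were Lrrc2, Snrpd3, Nodal, Hist1h2bm, Rps23, Srsf1 and Srsf2. In all, 9.47% of the 27179 genes of the count file and 15.2% of the 15384 genes with an RNA-seq value carried one of the peaks.

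Among the fixed gene lists, DNA repair had 6 of 20 genes with such a peak (30.0%), among them Brca2, Chek1, Rad50 and Xrcc5. Chromatin remodellers and modifiers had 12 of 46 (26.1%), glycolysis and hypoxia 5 of 22, mitochondrial ribosomal proteins 17 of 77, cytosolic ribosomal proteins 18 of 84, FACT with RNA polymerase II and elongation factors 8 of 39, proteasome subunits 8 of 40, pluripotency factors 5 of 26, splicing factors 9 of 49, Nodal, Wnt and FGF signalling 5 of 34, replication and cell cycle 6 of 43, genes named Zfp and a number 46 of 337, and translation factors 7 of 66. Neural genes had 2 of 20, Hes5 and Nes. The mesoderm, endoderm and trophectoderm list had 0 of 19, which allows a share of up to 15.8%. Histone genes had 2 of 76 (2.63%), the linker histone gene Hist1h1t and the H2B gene Hist1h2bm.

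RNA from these genes was above that of genes at large but below that of genes with the other kinds of SSRP1 peak. Per kb of exon, the mean control value had a median of 11 over the 2335 genes, 8.05 over all genes, 16 over the 671 genes with a shared narrow peak, 21.3 over the 749 with a broad peak and 6.58 over the 10703 with no peak of either subunit at the start. Not divided by length, the medians of the 2335 genes were 31.4, 31.2, 30.9 and 31.5 in the control libraries, against 21.8, 22.5, 23.0 and 21.9 over all genes. The 4 medians of each set come from the same genes, so they say nothing about the spread between genes. The quartiles of the control mean overlapped, at 13.7 to 68.5 for these genes and 9.62 to 52.4 over all genes. Of the genes with a value that are the nearest to one of the peaks, those nearest to a 294-bp peak had a median of 28.5, and those nearest to one of 588 bp or more 33.9. Genes whose peak lay upstream of the start had a median of 26.4, against 32.7 where it covered the start. In these bulk samples, fewer cells that express a gene and less RNA per cell cannot be told apart.

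Chromatin-associated RNA gave the same order at low depth. Small RNAs took most of the 3441643 and 3393923 counts of libraries 1 and 2 (snoRNAs 63.8% and 60.7%), and protein-coding genes 5.56% and 9.35%. The 2575 genes had a median of 6.00 and 11 counts and 14.3% and 9.24% of them had none, against 44.6% and 40.6% of all genes. Per kb of exon, their median was 0.676 and 1.20 CPM (counts scaled to the library total), all genes had 0.125 and 0.208, genes with a shared peak 1.04 and 1.80, and genes with a broad peak 1.41 and 2.41. Among genes with at least 10 counts over both libraries, the median of genes with a peak was 1.10 times that of all genes, where it was 4.99 times over the whole file. Of the 14 snoRNA genes Snord99 had 88524 and 92751 counts, Snord96a 75922 and 73630, Snord95 73603 and 97044, and Snord93 had 0 in both.

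KD of Ssrp1 was compared with control in limma over all 15384 genes. A call needed a log2 fold change beyond 1 in either direction together with a Benjamini-Hochberg adjusted p under 0.01. Of all genes, 8.07% were called higher and 20.6% lower in KD. Of the 2335 genes with a narrow SSRP1-only peak at the start, 214 were called higher (9.16%) and 270 lower (11.6%). Their share called lower thus stood below that of all genes and their share called higher close to it. Their median log2 fold change was 0.15, against -0.03 over all genes. Every gene past the fold also passed the adjusted p, so the fold alone set the calls. In 479 of the 484 called genes with a peak the control and KD libraries did not overlap, and over all genes in 4368 of 4405.

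The split of the calls depended on the scaling. Under the deposited spike-in scaling the median of all genes moved to 0.95, and 48.1% of all genes were called higher and 7.03% lower. Of the genes with a peak 1351 were called higher (57.9%) and 65 lower (2.78%), with a median of 1.16. Of the called genes with a peak, 44.2% were higher in the library-size values, 95.4% under spike-in scaling and 61.2% after quantile normalisation. Of all called genes it was 28.2%, 87.2% and 47.8%. The values below are from the library-size scaling, so that a rise or fall is relative to the other genes. They do not share a common total: they summed to 825584 to 909417 in control and to 1137293 to 1182584 in KD libraries. With the recovered reads under TMM scaling, 213 genes with a peak were called higher and 270 lower, beside 8.05% and 20.6% of all genes.

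The other classes gave these shares side by side. Genes with a shared narrow peak had 10.9% called higher and 7.30% lower (median 0.23), genes with a broad peak 19.8% and 7.08% (0.41), and genes with no peak at the start 6.94% and 25.1% (-0.17). The classes differ in their level of RNA, and the calls moved with that level. With all genes ranked by their mean log2 value over the 8 libraries and divided into 4 equal level groups, 54.3% of the lowest group and 1.82% of the highest were called lower. In each level group the share called lower was smaller for the genes with a narrow SSRP1-only peak than for all genes. It was 45.8% of 358 in the lowest and 1.31% of 762 in the highest. In the next to lowest it was 14.7% of 516 against 21.2% of all genes, and in the third 2.86% of 699 against 4.97%. From the lowest group up, it was 28.2%, 16.1%, 3.52% and 2.27% of genes with a shared narrow peak. For genes with a broad peak it was 25.5%, 11.3%, 4.67% and 1.34%. Called higher were 1.68%, 6.78%, 10.3% and 13.3% of the genes with a peak, against 1.87%, 5.67%, 9.44% and 15.3% of all genes. The lower quartile of the values over all genes was 8.30 to 10.4 in the control and 5.18 to 5.28 in the KD libraries, which were sequenced more deeply. With reads thinned to the smallest library, 210 genes with a peak were called higher and 282 lower, beside 8.20% and 21.0% of all genes.

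**Figure D4:**
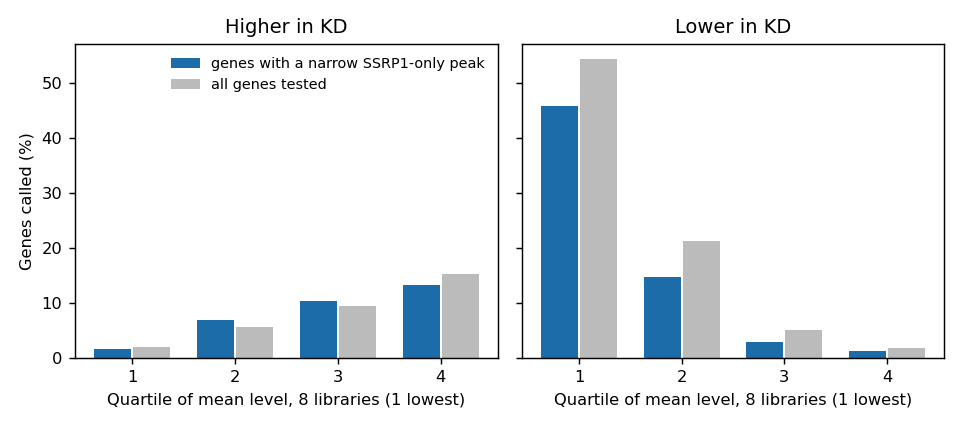
Share of genes called higher (left) or lower (right) in KD (y axis, %), for genes with a narrow SSRP1-only peak at the start and for all genes tested, in 4 equal groups of all genes ranked by mean log2 value over the 8 libraries (x axis, 1 lowest). The share called lower drops from 54.3% to 1.82% over all genes and from 45.8% to 1.31% over genes with a peak, which are the lower bar in every group.

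The calls by position of the nearest peak were as follows. Of 921 genes whose nearest peak covered the start, 8.03% were called higher and 9.88% lower. Of 828 with the peak downstream it was 11.2% and 11.4%, and of 350 with the peak upstream 7.43% and 16%. Over all genes tested it was 8.07% and 20.6%. The median control value was 32.7 where the peak covered the start, 32.4 where it lay downstream and 26.4 where it lay upstream. The part of RNA level in these shares was not tested.

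Among the largest rises of genes with a peak, all with control and KD libraries apart, were those of Lefty2, Tpi1, Lrrc2, Sec61b, Prelid2, Platr10 and Snrpd3, with log2 fold changes of 3.31 to 2.26. They were chosen by this contrast, so their values are a description. Lrrc2 and Snrpd3 also had a shared or broad SSRP1 peak or a SUPT16 peak at the start. Lefty2, a secreted inhibitor of Nodal, went from 9.26, 12.0, 9.15 and 7.66 in the control libraries to 102, 102, 94.9 and 92.5 in KD (log2 fold change 3.31 ± 0.100 SE, adjusted p = 2.94e-20 in limma). Its 392-bp peak, chr1:180893987-180894378, was centred 1063.5 bp downstream of the start, near the edge of the rule. Tpi1, the glycolytic triose phosphate isomerase, had 159, 147, 133 and 138 in control and 860, 836, 845 and 727 in KD (2.50 ± 0.0631 SE). Its 588-bp peak, chr6:124813683-124814270, was centred 319.5 bp downstream. For these genes each KD library was above each control library by a wide margin. Sec61b, a subunit of the channel that takes proteins into the endoplasmic reticulum, rose from 20.4, 25.3, 25.8 and 26.5 to 126, 130, 143 and 120. Snrpd3, a core protein of spliceosomal snRNPs, rose from 13.6, 11.4, 7.35 and 10.8 to 53.0, 53.3, 54.5 and 49.1. Platr10, a long non-coding RNA named for its link to pluripotency, rose from 12.0, 16.2, 12.6 and 11.2 to 71.6, 68.5, 68.1 and 64.3, with a 294-bp peak centred 563.5 bp downstream. The other 2 named here were Lrrc2, a leucine-rich repeat gene (2.41 ± 0.0983), and Prelid2, of the family of mitochondrial lipid carriers (2.37 ± 0.130).

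The largest falls were in Shank1, Sdk2, Cacna2d2, Atp8a2, Dagla, Ltbp2, Sorcs2 and Stxbp5l, with log2 fold changes of -3.77 to -3.01. Shank1, a scaffold protein of synapses, had 14, 28.6, 25.5 and 20.4 in control and 1.11, 1.29, 1.42 and 0.696 in KD (-3.77 ± 0.208, adjusted p = 4.07e-15 in limma). Its 686-bp peak, chr7:44310309-44310994, was centred 387.5 bp downstream. Sdk2, a cell adhesion protein of retinal synapses, had 14, 26.5, 27.3 and 17.4 in control and 1.48, 1.41, 1.30 and 1.51 in KD (-3.45 ± 0.194). For both, each KD library was below 2. Cacna2d2, a subunit of voltage-gated calcium channels, had 16.6, 22.0, 26.2 and 16.3 in control and 0.741, 2.35, 1.94 and 1.80 in KD (-3.27 ± 0.215). Atp8a2, a phospholipid flippase, had 6.94, 14.3, 12.7 and 11.8 in control and 0.618, 0.704, 0.842 and 1.28 in KD (-3.11 ± 0.234). All were low in control, from 11.4 for Atp8a2 to 33.6 for Ltbp2 in the mean, and the control libraries differed among themselves, from 14 to 28.6 in Shank1. Dagla, which makes the endocannabinoid 2-AG, fell by 3.10, Ltbp2, a protein of the extracellular matrix, by 3.08, and the sorting receptor Sorcs2 by 3.06, all on the log2 scale. Stxbp5l, a syntaxin-binding protein, went from 9.53, 13.4, 16.5 and 14.6 to 0.865, 1.52, 1.04 and 1.51.

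**Figure D5:**
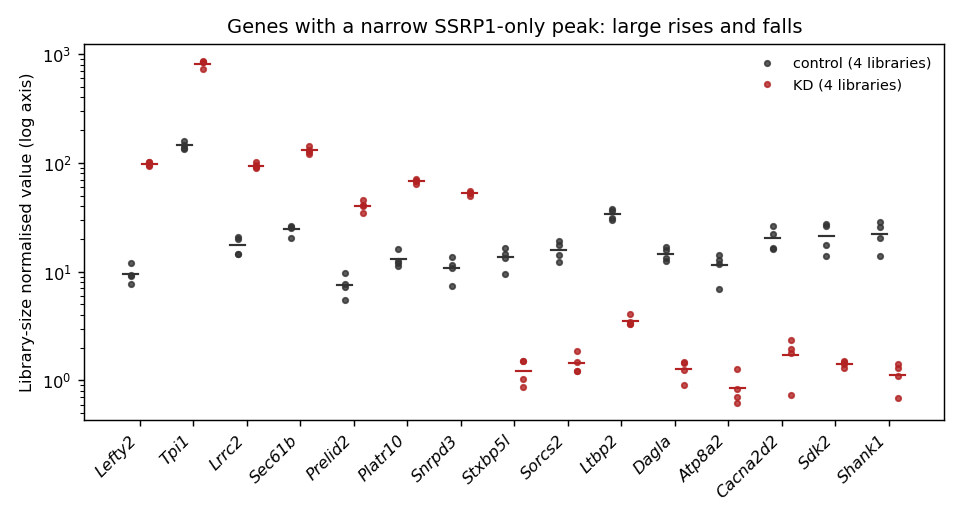
Library-size normalised value (y axis, log scale) in each of 4 control and 4 KD libraries (points, with the mean as a line) for 7 of the largest rises and the 8 largest falls among genes with a narrow SSRP1-only peak, named on the x axis. The genes that rose start between 7.51 (Prelid2) and 144 (Tpi1) in the control mean, and those that fell end between 0.860 (Atp8a2) and 3.54 (Ltbp2) in KD. Lrrc2 and Snrpd3 also had a shared or broad SSRP1 peak or a SUPT16 peak at the start.

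The genes of the fixed lists are given by role, and those shown with a call but outside the 3 of highest control value in each list, such as Tcl1, Kmt2d and Xrcc5, were picked after their values were seen. Of the FACT, RNA polymerase II and elongation genes, 8 carried a peak, 1 was called higher and 1 lower. Supt16, the partner of SSRP1, carried an 882-bp peak over its own start, chr14:52196663-52197544, centred 135.5 bp downstream. Its values were 346, 307, 296 and 326 in control and 529, 481, 507 and 498 in KD, a log2 fold change of 0.66 ± 0.0580 that did not reach the fold for a call. Polr2e, a subunit shared by the RNA polymerases, rose from 64.0, 54.9, 59.6 and 70.0 to 158, 169, 171 and 148 (1.38 ± 0.0693). Leo1, a subunit of the PAF1 complex, had overlapping libraries (0.15 ± 0.0733, adjusted p = 0.0713 in limma, and -0.23 after quantile normalisation). Over the whole list of 39 genes 3 were called higher and 3 lower.

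A peak was carried by 5 pluripotency genes: Sox2, Tcl1, Tbx3, Tfcp2l1 and Dppa2. Sox2 rose from 150, 163, 147 and 143 in control to 362, 364, 357 and 382 in KD (1.28 ± 0.0552, and 0.74 after quantile normalisation, under the fold), with a 392-bp peak at chr3:34649959-34650350, 149.5 bp downstream of the start. Tcl1, an AKT cofactor, rose by 1.86, from 19.6 ± 1.13 to 72.9 ± 5.46 (SD, n = 4). The transcription factors Tfcp2l1 (0.45 ± 0.0588) and Tbx3 (0.25 ± 0.0643), and Dppa2 (0.55 ± 0.0570), were not called. In all 3 the KD libraries lay above the control libraries, although after quantile normalisation the fold changes of Tfcp2l1 (-0.08) and Tbx3 (-0.10) were negative. In the whole list 14 of 26 were called higher and 0 lower, with a median of 1.04, against 0.55 for the 5 with a peak. Nes, an intermediate filament gene of neural progenitors, was the only neural gene with a peak and a value: it went from 42.6, 46.6, 42.9 and 39.1 to 33.2, 33.3, 33.5 and 32.9 (-0.36 ± 0.0760, and 0.65 under spike-in scaling) and was not called.

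In Nodal, Wnt and FGF signalling, 2 of 5 genes with a peak were called higher and 0 lower, where the whole list had 3 of 32 higher and 3 lower. Besides Lefty2, this was Etv4, an ETS factor downstream of FGF, which rose from 48.2, 60.8, 53.5 and 46.6 to 117, 129, 128 and 133 (1.27 ± 0.0731) and carried 2 of the peaks. After quantile normalisation it had 0.95, under the fold. Nodal itself had values of 83.2, 80.0, 87.0 and 89.4 in control and 159, 163, 162 and 166 in KD, a log2 fold change of 0.93 just under the fold. Smad4, the shared mediator of Nodal and BMP signals, had -0.30 ± 0.0727 (0.72 under spike-in scaling), and Fzd7, a Wnt receptor, 0.33 ± 0.0788.

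Glycolysis and hypoxia genes were called higher in 3 of 5 with a peak and in 16 of 22 of the whole list. After quantile normalisation it was 1 of 5 and 9 of 22. These were Tpi1, Pgam1, the phosphoglycerate mutase, and Slc2a1, the glucose transporter GLUT1. Pgam1 rose from 452, 410, 389 and 401 to 1058, 1042, 1005 and 1001 (1.31 ± 0.0587), and Slc2a1 from 220, 195, 187 and 215 to 492, 489, 460 and 472 (1.23 ± 0.0584). Slc2a1 had a 784-bp peak over its start, chr4:119108319-119109102. Eno1, the enolase, reached 1.00 ± 0.0581 without passing the fold, and carried 2 peaks.

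Ribosomal protein genes were often called higher. Of the 18 cytosolic ones with a peak, 11 were called higher and 0 lower, with a median log2 fold change of 1.13, and over the whole list it was 51 of 83 higher, 1 lower and a median of 1.07. After quantile normalisation 1 of the 18 was called higher, with a median of 0.46, and 8 of the 83, with a median of 0.36. Rps23 rose from 667, 586, 557 and 635 to 1439, 1366, 1451 and 1224 (1.16 ± 0.0680), and Rpl9 from 451, 373, 383 and 431 to 922, 905, 958 and 822 (1.14 ± 0.0655), while Rps24 (0.63 ± 0.0656, and -0.18 after quantile normalisation) was not called. The largest of the 11 was Rps28, at 1.69 ± 0.0749. Many of these genes have processed pseudogenes with which reads could be shared, and the sources used here do not say how the counting treated such reads. Mitochondrial ribosomal protein genes stayed closer to the fold: 2 of 17 with a peak, Mrpl14 (1.02) and Mrpl24 (1.01), were called higher and 14 of 76 over the whole list, with medians of 0.75 for the 17 and 0.75 for the whole list. Mrpl17, printed above, went from 68.1, 73.3, 66.2 and 71.5 to 108, 105, 105 and 104 (0.59 ± 0.0594), and Mrpl2 from 65.6, 61.1, 57.4 and 64.3 to 120, 124, 127 and 117 (0.97 ± 0.0616).

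Of 12 genes of chromatin remodellers and modifiers with a peak, 3 fell and 1 rose, and the median was -0.39, where the whole list of 46 had 4 lower, 4 higher and a median of 0.31. Under spike-in scaling 5 of the 12 were called higher and 0 lower, with a median of 0.58, and after quantile normalisation 0 and 3, with a median of -0.61. The genes that fell were Setd1b (-1.81 ± 0.126) and Kmt2d (-1.56 ± 0.0744), both H3K4 methyltransferases, and Arid1a (-1.20 ± 0.0632), the DNA-binding subunit of the BAF remodeller. Ehmt2, the H3K9 methyltransferase G9a, rose by 1.16. The most highly expressed members were not called: Chd4, the NuRD remodeller, had 472, 410, 398 and 429 in control and 528, 505, 480 and 575 in KD (0.29 ± 0.0636), Tet1, which oxidises methylcytosine, 238, 230, 227 and 227 against 262, 251, 261 and 274 (0.19 ± 0.0528), and Dnmt3b, a de novo DNA methyltransferase, 0.46 ± 0.0595. For these 3 the KD libraries were above the control libraries by less than the fold, and after quantile normalisation their fold changes were negative, at -0.39 for Chd4, -0.37 for Tet1 and -0.03 for Dnmt3b.

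DNA repair genes with a peak had 2 of 6 called higher and 0 lower, and the whole list 3 of 20 and 0, while after quantile normalisation it was 0 of 20. Xrcc5, the Ku80 subunit of end joining, rose by 1.27. Brca2, printed above, went from 130, 125, 125 and 126 to 185, 181, 187 and 200 (0.57 ± 0.0547). Rad50 had 144, 128, 130 and 127 in control and 129, 122, 129 and 129 in KD, with overlapping libraries (-0.05 ± 0.0578, adjusted p = 0.398 in limma, and 0.97 under spike-in scaling). None of the 6 replication and cell cycle genes with a peak was called, and 5 were higher and 1 lower in the list of 43. Among them were Mcm6 of the replicative helicase (0.86 ± 0.0555), cyclin E1 gene Ccne1 (0.81 ± 0.0609) and cyclin B2 gene Ccnb2 (0.90 ± 0.0612), all with KD libraries above control.

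Splicing factor genes with a peak had 3 of 9 called higher, namely Snrpd3, Hnrnpa0 (1.24 ± 0.0784) and U2af1 (1.23 ± 0.0769), and 0 lower, and the whole list had 8 of 49 higher and 0 lower. After quantile normalisation it was 2 of 9 and 2 of 49 higher, with 0 and 1 lower. The SR protein genes Srsf1 (0.59 ± 0.0538) and Srsf2 (0.39 ± 0.0547) and Rbm39 (0.14 ± 0.0594) were not called, and after quantile normalisation had -0.11, -0.17 and -0.50. Of 8 proteasome list genes 1 was called, the immunoproteasome subunit gene Psmb10 (1.53 ± 0.111), against 3 of 38 higher and 1 lower in the whole list. Psmc3 (0.74 ± 0.0576), Psmd13 (0.99 ± 0.0574) and Psmd1 (0.48 ± 0.0555, and -0.15 after quantile normalisation) were not, and Psmc3ip, in the list by its name, is no proteasome subunit. Of 7 genes named as translation factors 1 fell, Eif4g3 (-1.96 ± 0.105), and none rose, while the whole list had 9 of 63 higher and 2 lower (1 and 3 after quantile normalisation). Eif2s2 (0.98 ± 0.0583), Eif3c (0.85 ± 0.0574) and Eif3a (0.45 ± 0.0578) were higher in KD by less than the fold, Eif3a not so after quantile normalisation (-0.22). Of 44 genes named Zfp and a number with a peak and a value, 5 were called lower, Zfp11, Zfp423, Zfp523, Zfp612 and Zfp964, and 1 higher, Zfp367, against 45 lower and 9 higher of 314. Zfp462 had 102, 85.5, 97.6 and 96.4 in control and 61.4, 51.4, 52.6 and 56.5 in KD (-0.78 ± 0.0700, and 0.24 under spike-in scaling). Zfp207 (0.36 ± 0.0538, and -0.19 after quantile normalisation) and Zfp110 (0.43 ± 0.0593) were not called.

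Both histone genes with a peak rose, as did 67 of 75 histone genes in all. Hist1h2bm went from 46.4, 32.0, 40.0 and 41.7 to 117, 112, 124 and 106 (1.52 ± 0.0833), and Hist1h1t from 3.40, 2.41, 3.05 and 1.78 to 13.3, 12.7, 12.0 and 9.86 (2.00 ± 0.186). Histone genes of a cluster are near-identical, so reads may be shared between them.

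The highest RNA values among genes with a peak, not divided by length, were in Rpph1, the RNA of RNase P, Atp5b, a subunit of ATP synthase, Dync1h1, the dynein heavy chain, and Sptan1. Rpph1 rose from 8609, 6662, 5088 and 7210 to 17350, 17795, 20386 and 16743 (1.41 ± 0.138, adjusted p = 4.78e-10 in limma), with a 588-bp peak at chr14:50807317-50807904. Atp5b was at 0.81 ± 0.0680 (-0.01 after quantile normalisation) and Dync1h1 at -0.64 ± 0.0739 (0.39 under spike-in scaling), neither past the fold. Sptan1, printed above, had 1088, 933, 897 and 1017 in control and 998, 963, 1006 and 1026 in KD, which overlapped (0.02 ± 0.0648, adjusted p = 0.733 in limma, and -0.86 after quantile normalisation).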

How the data were processed

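ChIP-seq peak lists, RNA-seq values and chromatin RNA counts of mouse E14 ES cells were used. The deposited peak lists came from reads aligned to mm10 with Bowtie2 2.2.6, and PePr called the peaks on both replicates of a subunit together at a false discovery rate of 1e-05. The deposited RNA-seq signal values were gene counts (STAR, featureCounts, mm10) that the authors scaled to library size or to spike-in RNA, and the chromatin RNA counts were deposited unscaled. Deposited tables of fold changes and p-values (KD against control, neural progenitors against ES cells, exon usage) hold the study's own comparisons and were not used, nor were NET-seq, ATAC-seq and MNase-seq samples.

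Peaks and gene starts were joined in Python 3.11.15 (pandas 2.3.3, pysam 0.24.0). A gene start was the first start of the count file on the plus strand and the last end on the minus strand. Sequences and annotation were read from the RefSeq GRCm38 assembly, and starts outside the assembled nuclear chromosomes were left out of the sequence windows. On a log2 scale, after 0.5 was added, the library-size values went into limma 3.58.1 with a mean-variance trend (R 4.3.3), with Benjamini-Hochberg adjustment over all 15384 genes and no block, so fold changes of low genes are understated. On simulated counts the fit was checked with 200 changed genes, as many up as down, and with values scaled to a common total. The data differ in both respects, so this check does not bear on the split of the calls. The library-size values of every library were whole multiples of 1 read within 0.1 reads, which gave the read totals, and edgeR 4.0.16 and DESeq2 1.42.0 were run on those reads as alternatives. Wilson intervals and floors cover counting error only.

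Genes were named by rule: of the calls with control and KD libraries apart, the 8 with the highest and the 8 with the lowest fold change, in each of 16 lists the 3 genes of highest control mean, the 4 highest control means of all, and Ssrp1 with Supt16. The rule of showing the 6 nearest short peaks was departed from, since bases of untranslated exons are not printed. A few items that these rules name are not reported here. The members and the lists were chosen with earlier results of these data known.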

Additional observations from a re-analysis of the deposited data

Results flagged for a closer look

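In 3 of 128 groups of 4 libraries, 1 library stood apart from the other 3 by more than Dixon's 95% limit, and chance gives about 1 in 20. A group was the control or the KD values of 1 gene named by rule, or of the median over genes with a peak. Eif3c had 439 in 1 control library and 381 to 385 in the others (gap over range 0.935). Srsf1 had 437 in 1 control library and 408 to 412 in the others (0.833). Rad50 had 122 in 1 KD library and 129 in each of the others (0.936).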

How the results depend on the processing

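The calls rest on the fold and on the scaling. Of the genes with a peak, 214 were called higher and 270 lower. Spike-in scaling gave 1351 and 65, quantile normalisation 222 and 141, and a minimum mean value of 5 gave 212 and 174. The adjusted p alone gave 1024 and 669, and a test against the fold itself (treat) 84 and 112. In the same order these were 57.9% and 2.78%, 9.51% and 6.04%, 9.99% and 8.20%, 43.9% and 28.7%, and 3.60% and 4.80%. For all genes the shares were 48.1% and 7.03%, 9.87% and 10.8%, 9.19% and 15.5%, 35.4% and 37.3%, and 3.36% and 10.3%. Leaving out 1 library gave 203 to 230 higher and 249 to 295 lower, beside 7.87% to 8.55% and 19.8% to 21.7% of all genes. edgeR gave 216 and 296 (8.24% and 22.4% of all genes) and DESeq2 241 and 289 (9.09% and 21.9% of all genes). Same-numbered control and KD libraries did not deviate together (correlations 0.0175, -0.0154, -0.057 and -0.0224), so the values show no pairing by number. The fit with the replicate block gave the same 214 and 270. With each number in both groups the block leaves the fold changes as they are, and the fold alone set the calls. This fit therefore cannot test pairing.

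The rule gave 2060 peaks with a 500-bp window, 2689 with 2000 bp, 1596 with a length under 500 bp, 2197 without a SUPT16 peak within 1000 bp and 2130 with RefSeq protein-coding starts. With 1 distance for every start in reach, the median was 126 bp and 39.2% covered the start. The GC share was 64.0% in 300-bp windows, and the CG ratio of the shortest peaks 0.709. Over whole peaks the GC box was in 63.4%, CCAAT 32.3%, ETS 15.0%, NRF1 4.06%, YY1 3.51%, CRE 1.78%, E-box 11.6%, ZNF143 3.60%, TATA 6.56% and the CRE core 31.9%. In peaks centred within 300 bp of the start, the GC box was in 65.7%, ETS 14.4%, NRF1 3.74%, YY1 3.50%, E-box 9.42%, TATA 3.04% and the CRE core 27.2%. The chromatin RNA ratio of 4.99 became 5.69 not per kb, 1.10 over genes with at least 10 counts and 5.39 to 5.79 in single libraries. The log2 control level above all genes, 0.49, became 0.43 per kb and 0.47 to 0.50 without 1 library.

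Of 1071 comparisons of 63 named genes with an alternative, 995 kept direction and call, 9 lost the call, 46 gained it and 21 turned direction. Among the calls lost after quantile normalisation were those of Etv4 (0.95), Pgam1 (0.53), Rpl9 (0.39), Rps23 (0.31), Slc2a1 (0.64) and Sox2 (0.74). After quantile normalisation the log2 fold change turned to -0.01 for Atp5b, -0.39 for Chd4, -0.03 for Dnmt3b, -0.22 for Eif3a, -0.23 for Leo1, -0.15 for Psmd1, -0.50 for Rbm39, -0.18 for Rps24, -0.86 for Sptan1, -0.11 for Srsf1, -0.17 for Srsf2, -0.10 for Tbx3, -0.37 for Tet1, -0.08 for Tfcp2l1 and -0.19 for Zfp207. Under spike-in scaling it turned to 0.39 for Dync1h1, 0.65 for Nes, 0.97 for Rad50, 0.72 for Smad4 and 0.24 for Zfp462, and leaving out 1 library gave -0.02 (without control replicate 3) to 0.07 for Sptan1. The cause was not tested. Peak heights were not analysed here, so no depth can be set beside a peak, and chromatin RNA depth limits what low counts show.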
